A study of Sus scrofa with 6 samples.

Results

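The polycistron of miR-424, miR-503, miR-450 and miR-542 is a group of microRNA (miRNA) hairpins that, in human and mouse, lie close together on the X chromosome and are made from shared transcripts. A miRNA hairpin is cut into a short duplex, and each strand of it, the 5p or the 3p arm, can be loaded into an Argonaute protein and repress mRNAs that pair with its seed near the 5′ end. miR-424-5p carries the seed of the miR-15/16 family and miR-503 a closely related one. Members of that family repress cyclins and other drivers of the cell cycle, and in mouse muscle precursors miR-424 (called miR-322 there) and miR-503 repress the phosphatase CDC25A as cells stop dividing. The 9 pig (ssc) entries described here are ssc-miR-424-5p, ssc-miR-503, ssc-miR-450a, ssc-miR-450b-5p, ssc-miR-450b-3p, ssc-miR-450c-5p, ssc-miR-450c-3p, ssc-miR-542-3p and ssc-miR-542-5p, taken by name from the 1645 entries of the deposited table, with no limit on any value. The cluster was selected on earlier AA2P against control results of these same libraries, so its AA2P against control values are given as a description and support nothing further.

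Small RNA came from cultured immature Sertoli cells, the somatic nurse cells of the seminiferous tubule, of pig testes at 80 to 90 days of gestation. After 6 h of culture in medium with 10% serum, 3 libraries' cells received L-ascorbic acid 2-phosphate (AA2P), a long-lived form of vitamin C, at 250 µM, and those of 3 control libraries received none. How long the treatment lasted is not given. The comparison asks which miRNAs differ after AA2P. Nothing in the labels ties the libraries of a group to separate animals or cultures, so errors and calls reflect a spread that may be purely technical. In bulk RNA, fewer cells of a type and less RNA per cell cannot be told apart.

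Levels were deposited as TPM, in which the reads of all entries of a library are scaled to the same total. The steps between low values put the depth at 26.9 to 36.0 Mreads (M for mega) in AA2P libraries and 25.8 to 32.2 Mreads in control libraries, and the floor for an entry listed at 0, set at 3 reads, was 0.0834 to 0.116 TPM. miR-21-5p, the most abundant miRNA, took 37.0 to 44.1% of the reads in AA2P libraries and 51.3 to 53.0% in control libraries. In the same TPM, the median log2 fold change (AA2P over control, of TPM + 1) of the 433 entries tested was 0.25. Of those 433 entries, 24.7% were called by limma at an adjusted p under 0.05, 19.9% as higher (86 entries) and 4.85% as lower (21 entries) with AA2P, a split that became 48 higher and 51 lower under trimmed-mean scaling. Of 4 gonadal markers listed, 2 were tested by limma, 0 were called and 1 (miR-140-5p) had an unadjusted p under 0.05. The gonadal marker miR-202-5p was low but above the floor, at 0.420 to 0.680 TPM in AA2P libraries and 0.400 to 1.0 TPM in control libraries. It rested on 12 to 26 reads a library. miR-202-3p was at or near 0, at no more than 0.110 TPM in any library. miR-140-3p, which SOX9 induces in cartilage, stood at 1109 to 1249 TPM with AA2P and 1048 to 1170 TPM in controls, with overlap. Its other arm miR-140-5p had 118, 124 and 99.6 TPM in AA2P libraries and 91.3, 75.05 and 89.15 TPM in control libraries. It was higher with AA2P without overlap, as were 40.4% of all entries tested, but was not called (log2 fold change 0.42, SE 0.124).

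All 9 products were higher with AA2P in the deposited TPM, and for each of them the lowest AA2P library lay above the highest control library. Together they held 5614 ± 575 TPM in AA2P libraries and 3055 ± 96.3 TPM in control libraries (SD, n = 3 each), 1.84-fold more with AA2P. This was 0.561% ± 0.0575 of all reads in AA2P libraries and 0.306% ± 0.0096 in control libraries. The summed level was 6207, 5576 and 5059 TPM in AA2P replicates 1, 2 and 3, against 3017, 3165 and 2984 TPM in control replicates 1, 2 and 3. Single products stood 1.33-fold to 2.31-fold higher. limma called 7 of the 9 as higher, and 0 as lower, beside 19.9% and 4.85% of all entries tested. No overlap between the groups with AA2P higher was seen in 9 of 9 members and in 40.4% of all entries, and with AA2P lower in 0 members and in 9.24% of all entries. The median log2 fold change of the members was 0.84, beside 0.25 for all entries.

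**Figure D1:**
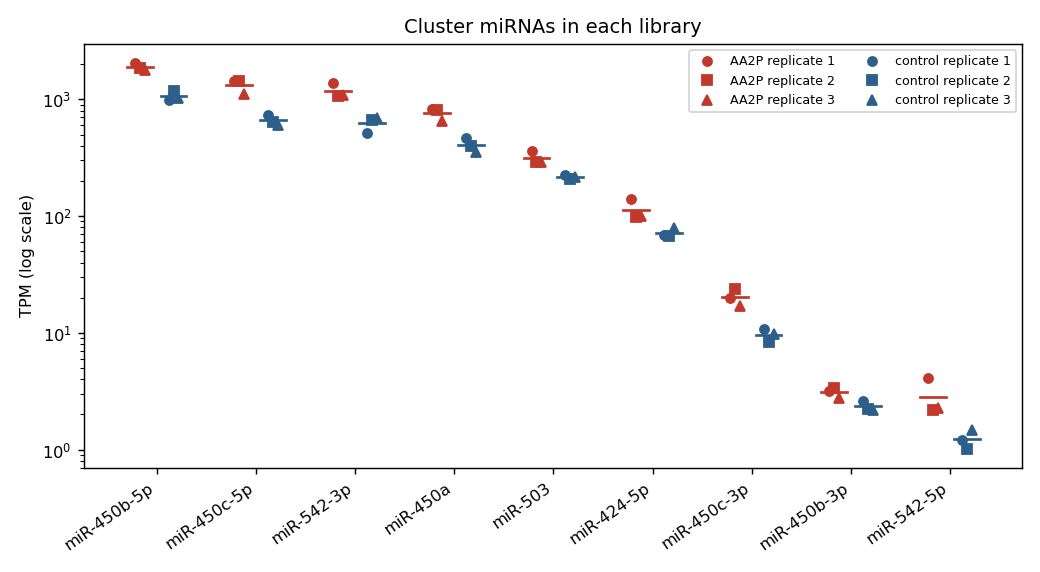
TPM of the 9 cluster miRNAs (log axis) in each AA2P library (red) and control library (blue), ordered by their mean in controls, with a symbol per replicate and a line at the group mean. In each product the 3 AA2P points lie above the 3 control points, and the levels span about 3 orders of magnitude, from miR-450b-5p at a mean of 1899 TPM with AA2P to miR-542-5p at 1.23 TPM in controls.

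miR-424-5p and miR-503, the pair with the seeds that repress cell cycle genes, were among the smaller differences of the cluster. miR-424-5p had 141, 97.4 and 99.5 TPM in AA2P libraries and 69.0, 67.5 and 79.0 TPM in control libraries. AA2P replicate 1 stood apart from the other two, and the lowest AA2P library was 1.23 times the highest control. Its mean was 113 ± 24.7 TPM with AA2P and 71.8 ± 6.24 TPM in controls, a log2 fold change of 0.62 (SE 0.165). miR-503 had 362, 293 and 289 TPM in AA2P libraries, against 227, 209 and 216 TPM in control libraries. Here too replicate 1 was the highest AA2P library, while the controls lay close together. Its mean of 315 ± 41.5 TPM with AA2P, against 217 ± 8.98 TPM in controls, gave a log2 fold change of 0.52 (SE 0.109). Both were called as higher. The miR-424-5p call was lost without AA2P replicate 3 and without any one of the control libraries, and the miR-503 call without control replicate 2 or 3. Both calls also ended under at least 4 of 5 other scalings of the libraries.

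The opposite arm of the same hairpin, miR-424-3p, is not among the 9 but is listed in the table. It had 56.3, 60.55 and 47.9 TPM in AA2P libraries and 35.6, 33.4 and 29.3 TPM in control libraries. These groups did not overlap either, and it was called as higher, with a log2 fold change of 0.73 (SE 0.126). The 5p arm was the more abundant in all 6 libraries, at 1.61 to 2.51 times the 3p arm with AA2P and 1.94 to 2.70 times in controls, so both arms of miR-424 were present at comparable levels and the ratio overlapped between groups.

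miR-542-3p, which represses the survival gene BIRC5 (survivin) in human cells, was close in level to miR-450c-5p. It had 1374, 1066 and 1083 TPM in AA2P libraries, against 511, 666 and 691 TPM in control libraries. Control replicate 1 lay below the other controls and AA2P replicate 1 above the other AA2P libraries, the widest spread among the 4 most abundant products on the log2 scale. Its mean was 1174 ± 173 TPM with AA2P and 622 ± 97.8 TPM in controls, a log2 fold change of 0.92 (SE 0.157), called as higher. Its partner miR-542-5p was the rarest product, with 4.09, 2.20 and 2.25 TPM in AA2P libraries and 1.20, 1.02 and 1.48 TPM in control libraries. These values rest on 110, 79 and 73 reads with AA2P and on 31, 33 and 45 reads in controls. Its ratio of mean deposited TPM was 2.31, but it was not called (log2 fold change 0.75, SE 0.248), and a pseudocount of 1 TPM understates changes at this level. miR-542-3p exceeded miR-542-5p 336-fold to 484-fold with AA2P and 425-fold to 653-fold in controls, with overlap.

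The 3 miR-450 hairpins gave most of the cluster's reads. miR-450b-5p was its most abundant product in all 6 libraries, with 2038, 1856 and 1802 TPM in AA2P libraries and 990.5, 1182 and 1023 TPM in control libraries. The lowest AA2P library was 1.52 times the highest control, and the means of 1899 ± 124 TPM with AA2P and 1065 ± 103 TPM in controls gave a log2 fold change of 0.84 with the smallest error of the cluster (SE 0.0948). miR-450c-5p had 1444, 1423 and 1113 TPM in AA2P libraries, against 739, 634 and 605 TPM in control libraries. AA2P replicate 3 was its lowest AA2P library, and its log2 fold change was 1.00 (SE 0.134). The order of the largest fold changes depended on the processing: miR-450c-3p was above miR-450c-5p under all 5 other scalings. With a pseudocount of 0.1 TPM, miR-542-5p and miR-450c-3p were both above miR-450c-5p. With totals without the 10 most abundant entries, miR-542-5p (0.86) was also above miR-450c-5p (0.81). That scaling raises all TPM against the fixed pseudocount of 1 TPM, which matters most for rare arms. miR-450a had 820.2, 811 and 652 TPM in AA2P libraries and 467, 395 and 356 TPM in control libraries. It had the same low AA2P replicate 3, and a log2 fold change of 0.91 (SE 0.139). All 3 were called as higher, and these were the only members called under each of the 19 alternatives run.

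The rarer arms of the miR-450 hairpins differed from each other. miR-450c-3p had 20.1, 23.6 and 16.9 TPM in AA2P libraries and 10.7, 8.37 and 9.82 TPM in control libraries. Its log2 fold change of 0.99 (SE 0.159) was close to that of miR-450c-5p, and it was called as higher. miR-450c-5p exceeded it 60.3-fold to 72.0-fold with AA2P and 61.6-fold to 75.7-fold in controls, so the arm ratio overlapped between groups. miR-450b-3p had 3.20, 3.39 and 2.77 TPM in AA2P libraries, against 2.63, 2.23 and 2.18 TPM in control libraries. The groups lay next to each other, with the lowest AA2P library at 1.05 times the highest control, and it was not called (log2 fold change 0.30, SE 0.159). miR-450b-5p exceeded miR-450b-3p 637-fold, 547-fold and 650.4-fold in AA2P libraries, and 377-fold, 530.0-fold and 469-fold in control libraries. Those ratios did not overlap, although AA2P replicate 2 and control replicate 2 lay close together. On the log2(TPM + 1) scale the ratio was 8.85 ± 0.109 with AA2P and 8.31 ± 0.212 in controls (SD, n = 3 each), a difference of 0.54. The miR-450b-3p values behind it rest on 86 to 122 reads with AA2P and 66 to 72 reads in controls.

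**Figure D2:**
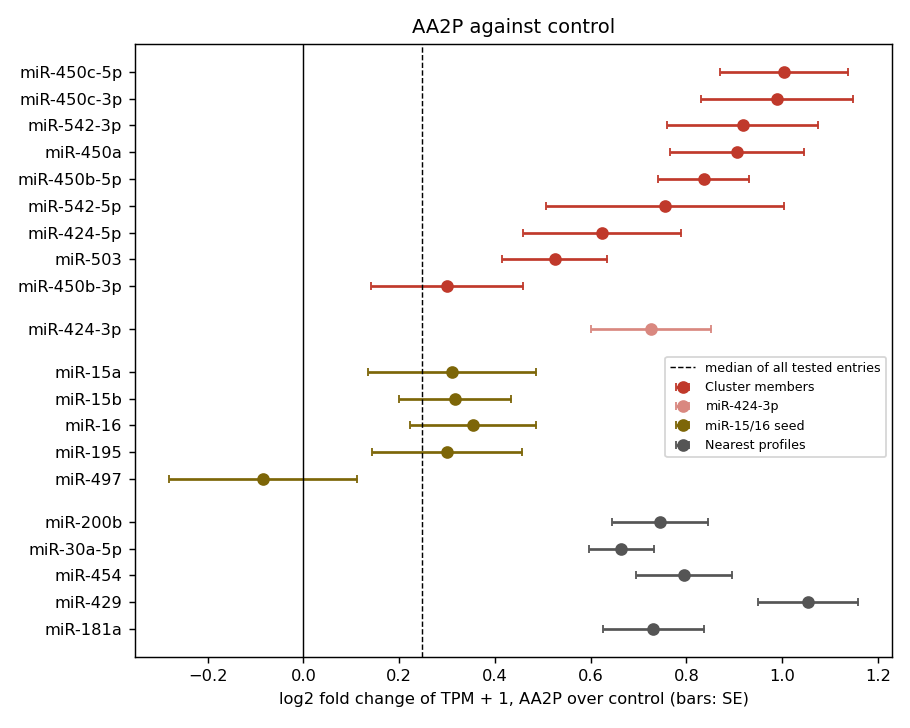
log2 fold change of TPM + 1 (AA2P over control, bars show the SE from limma) for the 9 members, for miR-424-3p, for 5 other miRNAs with the miR-15/16 seed and for the 5 entries with the most similar profile. The dashed line is the median of all 433 tested entries at 0.25; the members run from 0.30 for miR-450b-3p to 1.00 for miR-450c-5p, and 4 of the 5 miR-15/16 seed miRNAs lie near the dashed line.

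The order of the products was much the same in every library. It ran from miR-450b-5p through miR-450c-5p, miR-542-3p, miR-450a, miR-503 and miR-424-5p to miR-450c-3p, miR-450b-3p and miR-542-5p. Of the 8 neighbouring pairs in that order, 6 kept it in 6 of 6 libraries without overlap within either group. miR-450c-5p and miR-542-3p did not differ beyond their spread: the first was higher in 3 of 3 AA2P libraries and in 1 of 3 control libraries, and their ranges overlapped in both groups. miR-450b-3p and miR-542-5p overlapped in the AA2P group. Levels of different miRNAs are compared here as reads of products of similar length, and unequal capture of sequences during library preparation was not tested. How the authors assigned reads shared by related sequences is not given, so the split among the miR-450 products is less certain than their sum.

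The make-up of the cluster could be compared free of library scaling, as the share of each product in the summed TPM. miR-450b-5p gave 33.9% ± 1.49 of the sum in AA2P libraries and 34.8% ± 2.31 in control libraries (SD, n = 3 each). For miR-450c-5p it was 23.6% ± 1.79 with AA2P and 21.6% ± 2.51 in controls, and for miR-542-3p 20.9% ± 1.57 with AA2P and 20.4% ± 3.17 in controls. Shares of 7 of the 9 products overlapped between the groups. The exceptions were miR-503, at 5.25 to 5.84% in AA2P libraries and 6.6 to 7.5% in control libraries, and miR-450b-3p, at 0.052 to 0.061% in AA2P libraries and 0.070 to 0.087% in control libraries. Both were lower with AA2P as shares, since their levels differed less than the sum. Relative to miR-424-5p, the within-library log2(TPM + 1) ratios of 7 of the other 8 members overlapped between the groups. The exception, miR-542-5p, had a ratio of -4.90 ± 0.0826 with AA2P and -5.03 ± 0.0483 in controls, a difference of 0.13 that became 0.47 with a pseudocount of 0.1 TPM. miR-424-5p had the largest SE (0.165) of the members above 10 TPM, and its spread widens every ratio to it. The overlap counts of shares and ratios were not set beside the same counts for other entries. They therefore do not show that the make-up was unchanged.

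**Figure D3:**
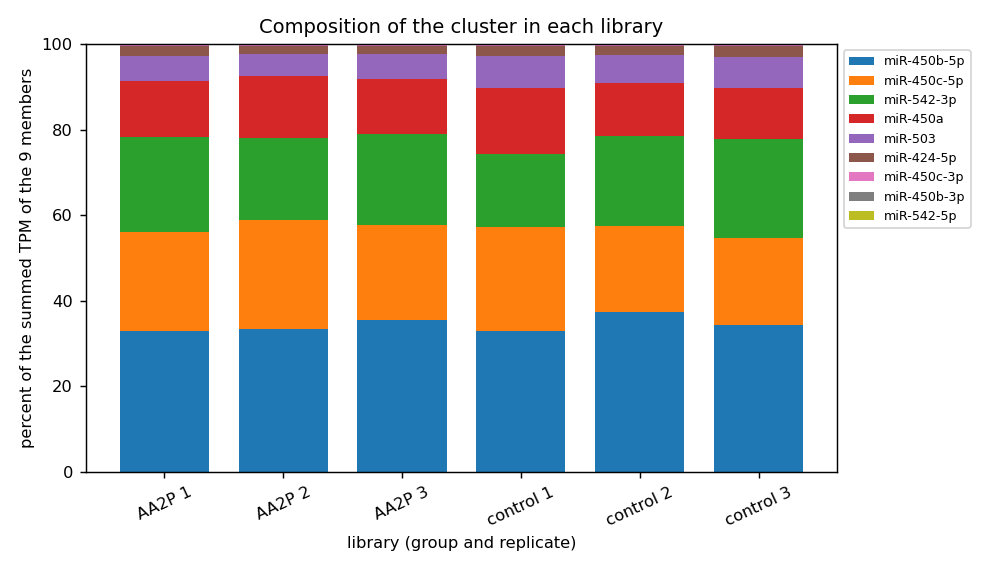
Share of each product in the summed TPM of the 9 members (bars add up to 100%) in each AA2P and control library. miR-450b-5p, miR-450c-5p, miR-542-3p and miR-450a take most of every bar; the miR-503 band is narrower in the 3 AA2P libraries (5.25 to 5.84%) than in the 3 control libraries (6.6 to 7.5%), and the rarest arms are too small to see.

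Within a group the products did not all follow each other. In the AA2P group, replicate 1 was the highest library for 7 of 9 products and replicate 3 the lowest for 6. miR-424-5p, miR-542-3p and miR-542-5p stood above their group mean by 0.34, 0.24 and 0.44 on the log2 scale in AA2P replicate 1, with both other AA2P libraries below the mean. In miR-450a, miR-450c-5p, miR-450c-3p and miR-450b-3p, AA2P replicates 1 and 2 were both at or above the mean and replicate 3 was below it. The same 2 sets differed among controls: control replicate 1 was the highest for the 4 miR-450 products just named, while control replicate 3 was the highest for miR-424-5p and both arms of miR-542. miR-503 and miR-450b-5p fell in neither set. Among AA2P libraries both were above their mean in replicate 1 only (by 0.21 and 0.10), as miR-424-5p was. Among controls, miR-503 was highest in replicate 1 (0.06 above the mean) and miR-450b-5p in replicate 2 (0.15 above). The grouping into 2 sets was seen in the values, leaves these members out, rests on 3 libraries a group and was not tested. How reads shared by related sequences were assigned is not given, so the miR-450 products may not be independent of each other.

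**Figure D4:**
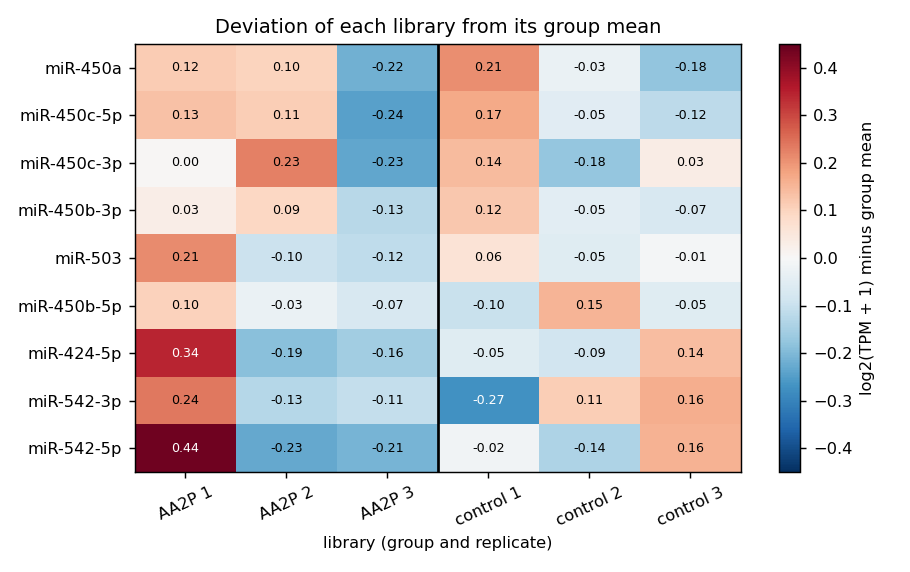
Deviation of log2(TPM + 1) from the group mean for the 9 products (rows, ordered after the values were seen) in the 3 AA2P and 3 control libraries (columns); red is above and blue below the mean. miR-542-5p and miR-424-5p reach 0.44 and 0.34 in AA2P replicate 1, while miR-542-3p is at -0.27 and miR-450a at 0.21 in control replicate 1.

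The size of the differences depended on how libraries were scaled. Under 5 other scalings the median of all tested entries moved by -0.17 to -0.27 on the log2 scale, and every member's fold change stayed above 0. miR-450c-5p was then at 0.60 to 0.81, miR-450a at 0.55 to 0.71, miR-450b-5p at 0.49 to 0.64, miR-424-5p at 0.33 to 0.43 and miR-503 at 0.23 to 0.40. miR-450a, miR-450b-5p and miR-450c-5p kept their calls under all 5 scalings, miR-450c-3p under 4, miR-542-3p under 3, miR-503 under 1 and miR-424-5p under 0.

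**Figure D5:**
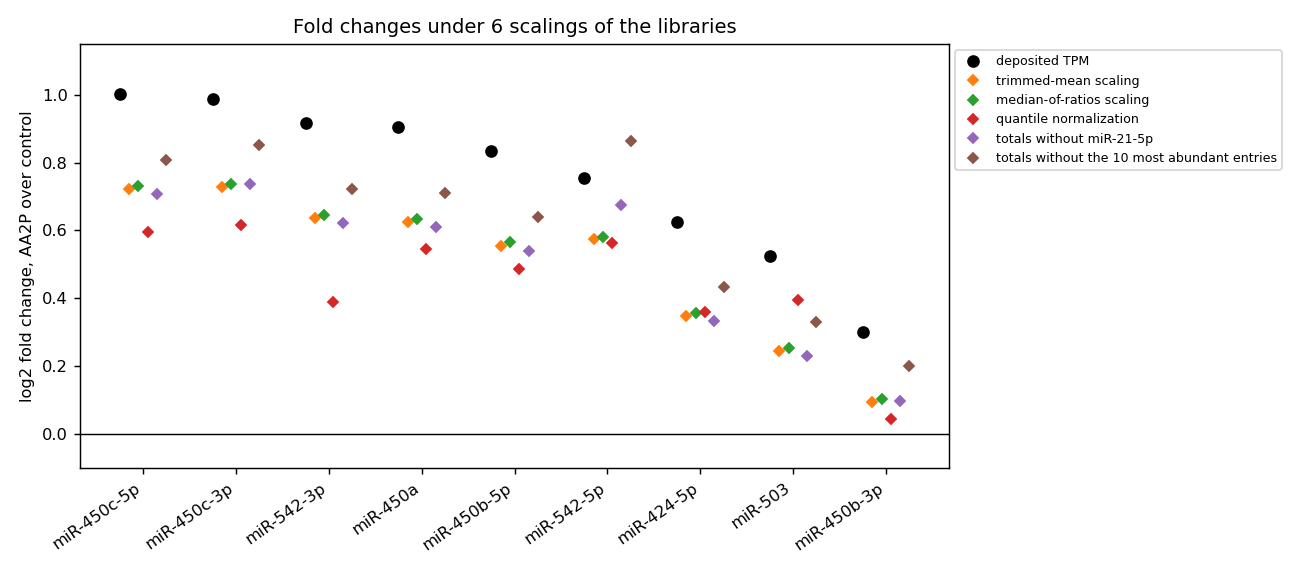
log2 fold change of TPM + 1 (AA2P over control) of each member in the deposited TPM (black) and under 5 other scalings of the libraries (coloured diamonds). All points lie above 0; miR-450c-5p is at 1.00 as deposited and at 0.60 to 0.81 otherwise, and miR-450b-3p is at 0.04 to 0.20 under the other scalings.

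Other miRNAs with the miR-15/16 seed come from hairpins on other chromosomes. None of the 5 (miR-15a, miR-15b, miR-16, miR-195 and miR-497) was called by limma, beside 24.7% of all entries, while 2 (miR-15b and miR-16) had an unadjusted p under 0.05, and their median log2 fold change was 0.31. miR-16, the most abundant, had 959, 730.4 and 754 TPM in AA2P libraries and 605, 593 and 704 TPM in control libraries. miR-16 (log2 fold change 0.35, SE 0.131) and miR-15b (0.32, SE 0.117) did not overlap between groups, while miR-15a, miR-195 and miR-497 did. These 2 of 5, with AA2P higher, stand beside 40.4% of all entries tested, so the count is an ordinary one. miR-497 was at 10.5 ± 1.80 TPM with AA2P and 11.2 ± 2.47 TPM in controls. The fold changes of miR-424-5p and miR-503 were above those of all 5, but the difference itself was not tested.

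On the X chromosome of RefSeq's Sscrofa11.1 assembly, the hairpins of miR-450b, miR-450a, miR-450c and miR-542 follow each other in that order, between HPRT1 and PLAC1. The build behind the deposited table is not given, so only this order is used. miR-424 and miR-503 were not matched there. Of 33 other entries whose hairpins that assembly places on X alone, 22 were tested, and 5 were called higher and 3 lower, beside 19.9% and 4.85% of all entries. Their median log2 fold change was 0.16. The 5 higher ones were miR-374a-3p, miR-374b-3p, miR-362, miR-500-5p and miR-421-3p. The 3 lower ones were miR-221-3p (2783 ± 204 TPM with AA2P and 6032 ± 1019 TPM in controls), miR-222 (1760 ± 248 TPM with AA2P and 4732 ± 389 TPM in controls) and miR-221-5p. The most abundant of the rest, miR-532-5p (2247 ± 128 TPM with AA2P and 2134 ± 180 TPM in controls) and miR-98 (2140 ± 202 TPM with AA2P and 1939 ± 199 TPM in controls), were not called. On the HPRT1 side, the nearest other miRNA genes form the cluster that holds miR-106a and miR-363. Of 4 entries made there alone, miR-20b was at 63.7 ± 14.5 TPM with AA2P and 50.7 ± 7.93 TPM in controls and miR-106a at 42.5 ± 1.34 TPM with AA2P and 41.5 ± 5.95 TPM in controls, neither of them called, while miR-18b and miR-363 did not pass the filter on low values.

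The entries whose profile over the 6 libraries was most like the mean profile of the 7 members above 10 TPM were miR-200b, miR-30a-5p, miR-454, miR-429 and miR-181a. Likeness was the root mean square difference of centred log2(TPM + 1) over 6 libraries among 242 candidates, and was 0.0779 for miR-200b and 0.101 to 0.116 for the other 4. Members themselves differed from their own mean profile by 0.10 to 0.17, and miR-424-3p came 7th with 0.120. miR-200b had 2645, 2732 and 2179 TPM in AA2P libraries and 1523, 1448 and 1517 TPM in control libraries. All 5 were called as higher, and the measure follows mainly the difference between the groups.

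Markers of other cells were looked at beside these values, since miR-424 and miR-503 are also made in muscle and endothelial cells. Of 6 muscle and myoid miRNAs listed, 4 were tested by limma, 0 called, beside 24.7% of all entries, and 1 (miR-1) had an unadjusted p under 0.05. Their sum was 219 to 307 TPM in AA2P libraries and 168 to 227 TPM in control libraries, with overlap. miR-1 made up most of it, at 223, 267 and 185 TPM with AA2P and 126, 172 and 162.5 TPM in controls, and did not overlap between groups. miR-133b and miR-206, both under 1 TPM in every library and not tested, were also higher with AA2P without overlap. In control replicates 1, 2 and 3 they rest on 8, 16 and 9 reads for miR-133b and 8, 1 and 3 for miR-206. Such a lack of overlap in 3 of the 6 listed stands beside 40.4% of all entries tested. That share covers only entries that passed the filter, which miR-133b and miR-206 did not. miR-133a-3p was at 8.68 ± 1.76 TPM with AA2P and 6.70 ± 1.09 TPM in controls. miR-145-5p was at 1.89 ± 0.770 TPM with AA2P and 1.28 ± 0.355 TPM in controls. Both had a higher mean with AA2P, with overlap. miR-143-3p, at 30.8 ± 8.22 TPM with AA2P and 34.6 ± 10.7 TPM in controls, also overlapped. It was the only muscle and myoid miRNA listed whose mean was lower with AA2P. The 2 endothelial markers, both arms of miR-126, summed to 86.8 to 111 TPM with AA2P and 98.4 to 112 TPM in controls. Of 7 blood markers, 2 were tested by limma, and both had an unadjusted p under 0.05, in opposite directions. miR-142-3p was called as higher, at 1.47 to 2.68 TPM with AA2P and 0.430 to 0.590 TPM in controls, but it passed the filter of 1 TPM only through the AA2P libraries, so this call carries no weight. Its other arm miR-142-5p, not tested, had 2.08, 0.72 and 0.74 TPM with AA2P and 0.35, 0.34 and 0.56 TPM in controls. Both arms were higher with AA2P without overlap, 2 of the 7 blood markers, beside 40.4% of all entries tested. Most of the 7 did not pass the filter that those entries passed, so the 2 shares are not of like sets. miR-486 was at 2.34 ± 0.710 TPM with AA2P and 3.76 ± 0.549 TPM in controls and was not called (log2 fold change -0.53, SE 0.210). The blood sum was 4.48 to 14.2 TPM with AA2P and 4.87 to 5.90 TPM in controls, with its maximum in AA2P replicate 1, where miR-223 stood at 5.40 TPM. Of 6 germ and pluripotent cell miRNAs, miR-371-5p was the only one with a row, at 0.110 TPM or less. The part of muscle or blood cells in the levels of the cluster was not tested.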

How the data were processed

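Small RNA of 6 libraries (3 AA2P, 3 control) was sequenced on an Illumina NovaSeq in 1 lane. The authors deposited 1 table of TPM, with 358 known and 1287 predicted entries, whose columns sum to 999999.82 to 1000000.08. The submitters' processing notes name Bowtie, giving neither its version nor its role. Genome build, miRBase release and the treatment of shared reads: not given in the sources used here. Low values step by 1 read, which gave the depths and the read numbers printed above. Such read numbers bear on counting error only. Implied reads of libraries within a group differed far beyond counting error (chi-square over its degrees of freedom, 98.8 to 621), and none was taken as a repeat.

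The 433 entries that reached 1 TPM in 3 or more of 6 libraries were tested on log2(TPM + 1), so fold changes of low entries are understated, with limma 3.58.1 in R 4.3.3 (mean-variance trend, group only, two-sided, Benjamini-Hochberg over all 433, calls under 0.05), after a check on simulated data. Deviations from the group mean correlated at 0.29, 0.06 and 0.18 between libraries of the same number, not all over 0.1, so no block was used. The members and lists were chosen with earlier results of these data known. Named were all members, miR-424-3p, the miR-15/16 seed list, the 4 most abundant other X-linked miRNAs and the 5 nearest profiles; other X-linked miRNAs and the markers named were picked to complete counts. RefSeq matched 312 of 358 known entries by hairpin name. No sequence was used.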

Additional observations from a re-analysis of the deposited data

How the results depend on the processing

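The members' 7 calls became 4 with quantile normalization and 4 with totals without miR-21-5p, and 5 to 7 with 1 library left out. They became 8 with known miRNAs only, where miR-542-5p was also called. With no filter they were 5, without miR-424-5p and miR-503, and with no mean-variance trend 6, without miR-424-5p. The log2 ratio of their summed TPM, 0.88 as deposited, was 0.59 with trimmed-mean scaling, 0.60 with median-of-ratios scaling, 0.49 with quantile normalization, 0.58 without miR-21-5p and 0.68 without the 10 most abundant entries in the totals, and 0.80 to 0.95 with 1 library left out. The 107 calls over all entries (86 higher, 21 lower) became 57 with no filter, where 1645 entries were tested, and 62 to 98 with 1 library left out, 62 of them without control replicate 3. They split into 48 higher and 51 lower with trimmed-mean scaling. With the replicate number as a block 63 entries passed and 6 members kept a call, the exception being miR-424-5p. No member's log2 fold change changed sign under the alternatives in which it was tested, 19 for 7 members and 18 for miR-450b-3p and miR-542-5p. The filters, the variance model, the entries tested and the block leave the fold change as it is by construction. Since no member overlapped between the groups, a pseudocount or a left-out library could not change its sign either. Only the other scalings therefore bear on the sign. The within-library difference of the miR-450b arms was 0.43 to 0.64 with 1 library left out and 0.44 with a pseudocount of 0.1. The difference of miR-542-5p over miR-542-3p was -0.16, and 0.18 with that pseudocount, so its direction depends on it. Depth limits miR-542-5p and miR-450b-3p most, which rest on 31 to 122 reads. Causes were not tested.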
